A study of Mus musculus with 6 samples.

Results

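The mitochondrial carrier family is the set of transport proteins that move metabolites, nucleotides and cofactors through the inner mitochondrial membrane. Its genes were taken as every gene whose platform symbol begins with Slc25a, together with Ucp2, Ucp3, Mtch1 and Mtch2. In all, 36 of the 12393 genes measured met this rule: 33 Slc25a genes, Ucp3, Mtch1 and Mtch2. Ucp2 and the Slc25a genes not named below, among them the citrate carrier Slc25a1 and the aspartate/glutamate carrier Slc25a12, were not analysed here. The 36 genes were covered by 74 probe sets, and each gene was represented by its brightest one.

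Carriers share a barrel of membrane helices that opens in turn to either side of the membrane, usually exchanging one substrate for another. They supply the respiratory chain with phosphate and ADP, export ATP and citrate, shuttle reducing equivalents, and bring in amino acids, acylcarnitines, iron, NAD+ and glutathione. In fat, UCP1 of brown and beige adipocytes is the best known member of the wider family, since it lets protons back through the membrane and so turns fuel into heat.

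RNA came from white adipose tissue of mice aged 8 weeks, of mixed C57BL6 and 129 background, all kept at 4 °C for 4 days. YY1aKO mice were YY1flox/flox with Adiponectin Cre, which is active in adipocytes and removes the transcription factor YY1 there. Control mice were YY1flox/flox without Cre, so the Cre transgene differs between the groups together with Yy1. There were 3 YY1aKO and 3 control samples, hybridised to 1 Affymetrix array apiece. No label says that these were separate animals, so p-values here reflect sample-to-sample spread, which may be technical. The labels disagree on the depot: titles say EWAT and the tissue field visceral, while the series title and the descriptions say subcutaneous. With so few arrays, their number sets the precision.

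Adipocyte markers were bright on all arrays, and the 8 measured genes summed to 104435 to 111361 in YY1aKO and 82699 to 127643 in control. Yy1 read 373, 323 and 315 in YY1aKO and 1785, 1846 and 1596 in control. Control replicate 2 stood apart from the other arrays. Over the 12393 genes it correlated with them at 0.912 to 0.945 (Pearson's r, where the genes do not count as replicates), and the other arrays with each other at 0.963 to 0.996. The 9 measured epididymis markers summed to 234 to 254 in YY1aKO, against 225 in control 1, 947 in control 3 and 115443 in control 2. Among the carriers, 4 of 36 lay more than 1 log2 unit from the mean of controls 1 and 3 in control 2 (11.1%, against 13.5% of all genes). These were Slc25a47 (2.58 above), Slc25a13 (2.35 above), Slc25a29 (1.33 above) and Ucp3 (a log2 difference of -1.43). Results are therefore given with 6 arrays and without control 2.

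With 6 arrays, 3 of the 36 carriers rose in YY1aKO and none fell: Slc25a44, Slc25a39 and Slc25a33 (limma, adjusted p under 0.05 over all 12393 genes). Of all genes, 6.85% were higher and 3.99% lower by the same test, so the carriers' share of 8.33% called lies near the background of 10.8%. At an unadjusted p under 0.05, 11 carriers passed, or 30.6% against 28.1% of all genes. Without control 2, 7 carriers rose (Slc25a10, Slc25a22, Slc25a33, Slc25a39, Slc25a44, Slc25a46 and Slc25a51) and 4 fell (Slc25a13, Slc25a37, Slc25a45 and Ucp3). The background was then 14.7% higher and 11.5% lower, and 30.6% of the carriers against 26.1% of all genes were called. When only the brightest 60% of genes were tested, with 31 carriers among them, 16.1% of these carriers were called against 20.7% of those genes. Without control 2, with the same genes as chosen on all 6 arrays, these shares were 35.5% and 45.1%. The median log2 fold change of the 36 carriers was 0.17, against 0.04 over all genes, and without control 2 it was 0.10 against 0.01. The YY1aKO and control values did not overlap for 13 carriers, or 36.1%, which is close to the 37.9% of all genes.

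The 3 calls with 6 arrays ended when any one of YY1aKO 1, YY1aKO 2, YY1aKO 3 or control 3 was left out, and their adjusted p was then 0.051 to 0.069 for Slc25a44, 0.082 to 0.13 for Slc25a39 and 0.11 to 0.17 for Slc25a33 (limma). No carrier passed in these fits, in which only 0.202% to 0.944% of all genes did, so that 0 of 36 is no result about the carriers. At an unadjusted p under 0.05, 7 to 10 carriers passed, and 19.2% to 23.1% of all genes. Without control 1, 5 carriers rose (13.9%, where 11.2% of all genes were called). With control 2 and one further array left out, Slc25a44 and Slc25a39 passed in each of the 5 fits, and no other carrier did so. In these fits 14.1% to 24.4% of all genes were called.

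**Figure D1:**
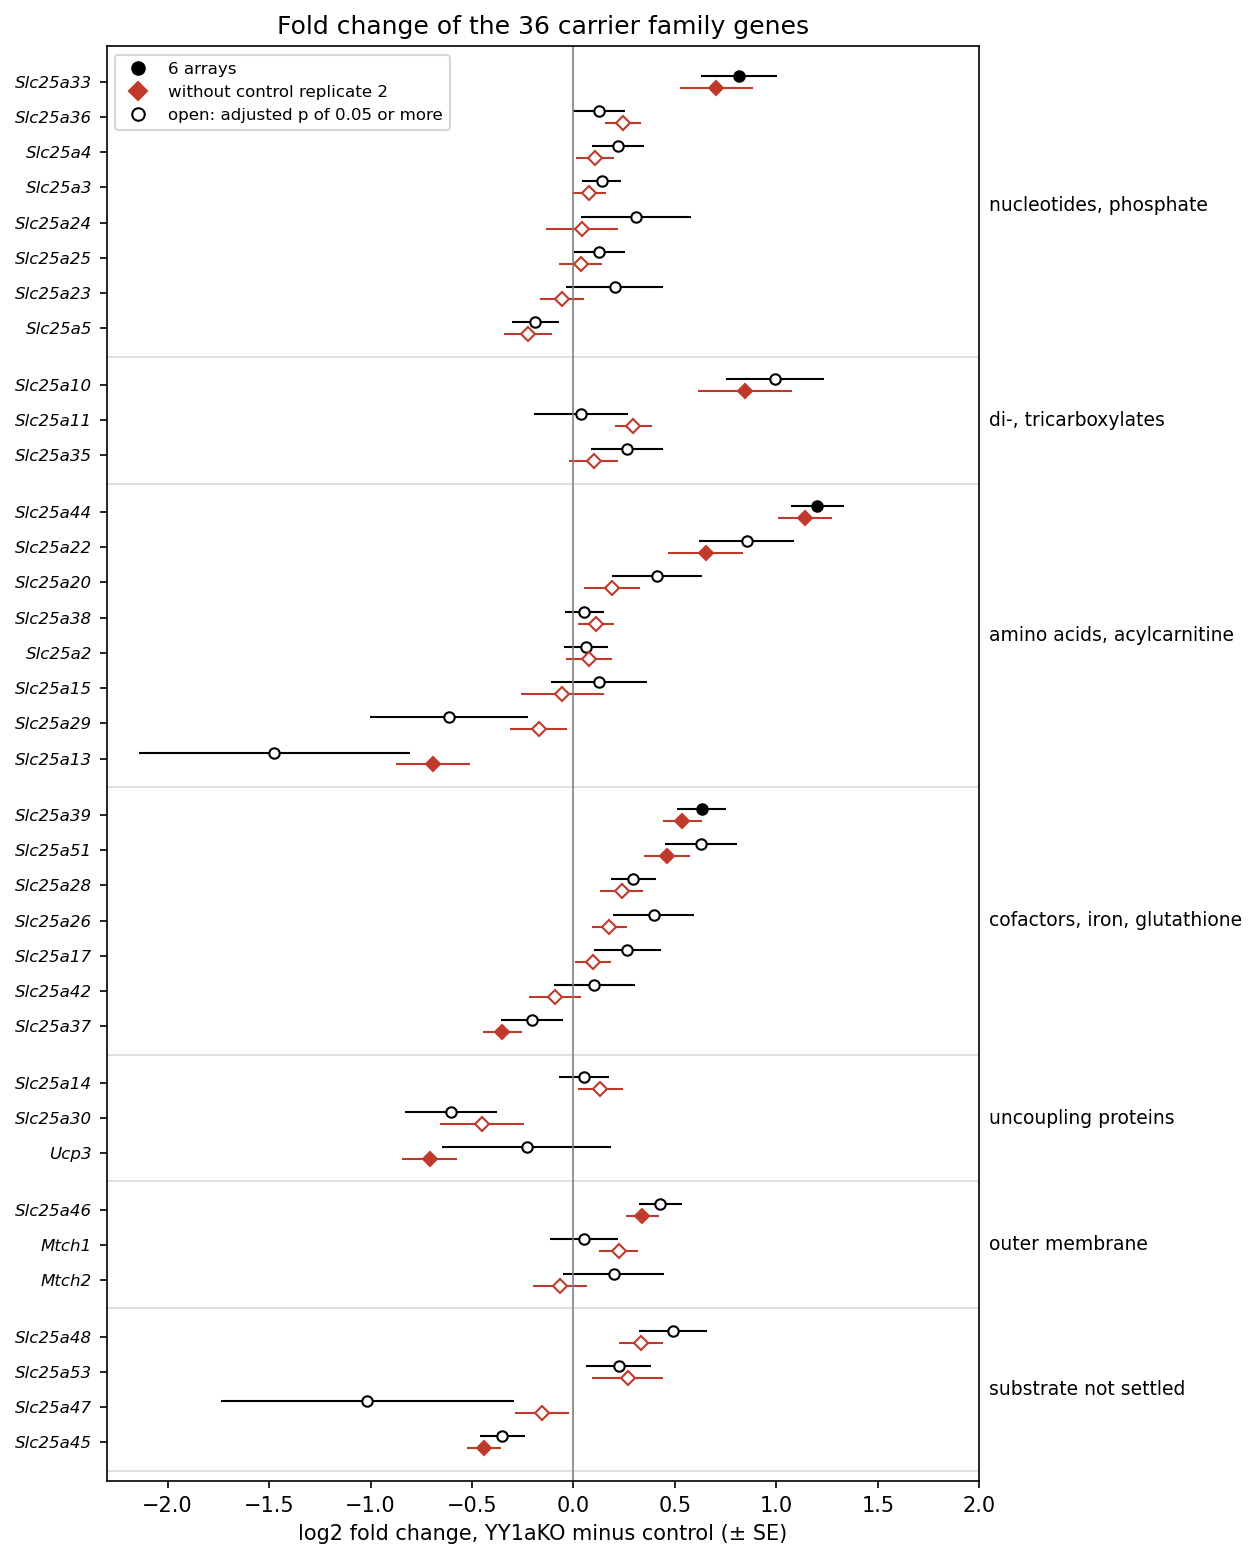
Log2 fold change (YY1aKO minus control, ± SE, x axis) of the 36 carrier genes by role, with 6 arrays (black circles, n = 3 per group) and without control replicate 2 (red diamonds, 3 YY1aKO and 2 control). Filled symbols have an adjusted p under 0.05 in limma. Slc25a44 lies highest of the called genes in both fits, and Slc25a13, Slc25a47 and Slc25a29 lie much closer to 0 without control 2.

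The upstream sequences of 2 of the 3 genes called with 6 arrays, and of the phosphate carrier gene, are printed to show what was searched for motifs of YY1. Each runs 5′ to 3′ along the gene's strand, from 250 bases before to 50 bases after the annotated start (RefSeq, GRCm38.p6). Capitals mark motif matches, which occur only in the Slc25a3 sequence here: first an NRF-1 motif, then the extended YY1 core at the window's end.
Slc25a39 chr11:102407468-102407767 (- strand): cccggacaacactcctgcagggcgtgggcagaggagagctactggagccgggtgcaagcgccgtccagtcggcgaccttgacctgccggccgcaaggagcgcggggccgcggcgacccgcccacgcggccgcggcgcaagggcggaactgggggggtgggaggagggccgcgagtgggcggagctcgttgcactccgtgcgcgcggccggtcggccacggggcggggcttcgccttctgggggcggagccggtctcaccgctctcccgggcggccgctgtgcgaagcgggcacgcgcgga
Slc25a33 chr4:149774218-149774517 (- strand): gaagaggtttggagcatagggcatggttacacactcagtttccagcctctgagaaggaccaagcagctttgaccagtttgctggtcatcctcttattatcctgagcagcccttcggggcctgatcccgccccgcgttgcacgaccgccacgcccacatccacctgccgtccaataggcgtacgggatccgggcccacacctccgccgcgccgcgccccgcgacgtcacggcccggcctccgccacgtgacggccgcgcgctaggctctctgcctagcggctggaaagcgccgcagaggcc
Slc25a3 chr10:91123918-91124217 (- strand): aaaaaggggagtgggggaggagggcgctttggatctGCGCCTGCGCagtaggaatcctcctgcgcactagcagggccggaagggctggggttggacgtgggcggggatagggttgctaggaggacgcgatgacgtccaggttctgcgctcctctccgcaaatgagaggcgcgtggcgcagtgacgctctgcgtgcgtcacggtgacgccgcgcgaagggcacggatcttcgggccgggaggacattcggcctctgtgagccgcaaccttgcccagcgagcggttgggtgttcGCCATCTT

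Promoter windows were held for 29 of the 36 carriers, 39 windows in all. Slc25a44 is not among them. The YY1 core CCATNTT occurred on either strand in 3 of the 39 windows, those of Slc25a3, Slc25a14 and Slc25a25, or 7.69% against 16.1% of 32851 windows of the same length. Its extension GCCATNTT, which overlaps it, occurred in Slc25a3 and Slc25a14 (5.13% against 6.05%), and a longer YY1 motif in 0 of 39 windows against 0.633% of all. NRF-1, a regulator of nuclear genes for mitochondria, has a motif of its own, which occurred in Slc25a3 and Mtch2 (5.13% against 4.60%). The cyclic AMP response element TGACGTCA occurred in Slc25a25 and Slc25a36 (5.13% against 1.79%). The site TGATGNAA, bound by ATF4 with a partner, occurred in 0 of 39 windows against 3.97% of all. None of the 6 motifs lies in the windows of Slc25a39 or Slc25a33. The 39 windows had a median of 60% G and C, against 52.7% over all windows.

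Slc25a44, which brings branched-chain amino acids into mitochondria and in mouse brown fat is known to serve their use for heat in the cold, showed the clearest rise among the carriers. It read 593, 743 and 657 in YY1aKO, against 326, 265 and 276 in control. Every YY1aKO value was above every control value, and control 2 lay close to the other controls. The log2 fold change was 1.20 ± 0.13 (SE, n = 3 per group), or 2.30-fold, with an adjusted p of 0.010 in limma. Without control 2 it was 1.14 ± 0.13 (adjusted p = 0.0043). Another bright probe set gave 1.22 ± 0.15, while a dimmer one, at 76.0 to 92.4 in YY1aKO and 71.1 to 84.1 in control, gave 0.15 ± 0.12 and did not pass. In bulk tissue, a change in the number of cells of a type and a change of RNA per cell cannot be told apart.

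Among the other amino acid carriers, the glutamate carrier Slc25a22 read 732, 642 and 807 in YY1aKO, against 554, 302 and 384 in control. The groups did not overlap, and control 2 was the lowest array. It did not pass with 6 arrays (0.85 ± 0.24, adjusted p = 0.076) and rose without control 2 (0.65 ± 0.18, adjusted p = 0.049, limma). Slc25a13, or citrin, which exchanges aspartate for glutamate and so feeds cytosolic reducing equivalents into mitochondria, read 21.7, 25.6 and 24.7 in YY1aKO, against 31.7, 197 and 47.3 in control. It was dim on all arrays except control 2. Control 3, whose epididymis markers summed to 947 against 225 in control 1, also read above control 1. Whether that bears on the Slc25a13 values was not tested. The log2 fold change of Slc25a13 was -1.47 ± 0.67 with 6 arrays (adjusted p = 0.22, limma). Without control 2 it was -0.69 ± 0.18, and the gene fell (adjusted p = 0.042, limma). How far such low readings consist of background is not known, as no detection calls were used.

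Slc25a29, a carrier of basic amino acids, read 128, 141 and 163 in YY1aKO and 177, 405 and 147 in control, and control 2 again stood above the rest. It passed in neither fit (-0.61 and -0.17 without control 2). The ornithine carriers Slc25a15 (0.13 ± 0.24) and Slc25a2 (0.06 ± 0.11), and the carrier Slc25a38 that brings in glycine for haem (0.05 ± 0.10), did not pass. Slc25a2 read only 16.3 to 20.3 over the 6 arrays. In this group of 8 genes, the acylcarnitine carrier Slc25a20 included, 1 rose and none fell with 6 arrays, and 2 rose and 1 fell without control 2. Of all genes 10.8% and 26.1% were called in these fits.

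The carnitine/acylcarnitine carrier Slc25a20, through which fatty acids reach oxidation in the matrix, read 2387, 2269 and 2798 in YY1aKO, against 2406, 1375 and 1951 in control. The groups overlapped, with control 2 lowest. It passed in neither fit, at 0.41 ± 0.22 with 6 arrays (95% interval from -0.13 to 0.95) and 0.19 ± 0.14 without control 2 (interval from -0.15 to 0.53).

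Slc25a39 imports glutathione, the main thiol antioxidant, into mitochondria. It read 6621, 6605 and 7586 in YY1aKO, against 4775, 3916 and 4774 in control. All 3 YY1aKO arrays lay above all controls, and the rise was 0.63 ± 0.12 on the log2 scale, or 1.55-fold (adjusted p = 0.030 in limma, and 0.013 without control 2 at 0.54 ± 0.10). Its brightest probe set carries the suffix _x_at, which marks probes that may bind other transcripts. The 2 dimmer probe sets, one of them also _x_at, rose by 0.71 and 0.77, so that all 3 passed.

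Slc25a51, the carrier of NAD+ into the matrix, read 4425, 4354 and 5208 in YY1aKO, against 3559, 2371 and 3212 in control. The groups did not overlap. With 6 arrays it did not pass (0.63 ± 0.18, adjusted p = 0.080), and without control 2 it rose by 0.46 ± 0.11 (adjusted p = 0.034, limma). Of its 2 other probe sets one passed with 6 arrays (1.12 ± 0.24) and one did not (0.52 ± 0.33).

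The mitoferrins import iron for haem and iron-sulphur clusters, and the pair differed in sign. Slc25a37, mitoferrin 1, read 138, 151 and 160.4 in YY1aKO, against 185, 140.4 and 197 in control. It did not pass with 6 arrays (-0.20 ± 0.15) and fell without control 2 (-0.35 ± 0.10, adjusted p = 0.046, limma), since control 2 lay among the YY1aKO values. Slc25a28, mitoferrin 2, read 621, 619 and 694 in YY1aKO, against 586, 484 and 509 in control. It passed in neither fit (0.30 ± 0.11, adjusted p = 0.15), although its groups did not overlap. The difference between the mitoferrins was not tested.

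The other carriers of cofactors passed in neither fit. The S-adenosylmethionine carrier Slc25a26 read 459, 422 and 451 in YY1aKO, against 408, 249 and 377 in control, with no overlap (0.40 ± 0.20). The peroxisomal carrier Slc25a17 had 0.26 ± 0.16 and the coenzyme A carrier Slc25a42 0.10 ± 0.20. A second Slc25a17 probe set, which read 22.0 to 24.5 in YY1aKO and 17.7 to 18.3 in control, passed (0.37 ± 0.08, adjusted p = 0.047 over all probe sets).

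Slc25a33 carries pyrimidine nucleotides into the matrix for mitochondrial DNA and RNA. It read 821, 661 and 889 in YY1aKO, against 557, 382 and 416 in control. The groups did not overlap, and the rise was 0.82 ± 0.19 on the log2 scale, or 1.76-fold, with an adjusted p of 0.048 in limma, just under the threshold. Without control 2 it was 0.70 ± 0.18 (adjusted p = 0.037). Slc25a36, its paralog with the same class of substrate, read 1893, 1706 and 1910.5 in YY1aKO, against 1541, 1975 and 1555 in control, and passed in neither fit (0.13 ± 0.13, and 0.24 ± 0.09 without control 2). Whether the paralogs differ was not tested.

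The carriers that serve ATP synthesis directly were Slc25a3, Slc25a4 and Slc25a5, and none of them passed in either fit. Slc25a3, which imports phosphate, read 7195, 7868 and 7643 in YY1aKO, against 7298, 6304 and 7041 in control. Slc25a4, the ADP/ATP carrier ANT1 of muscle and heart, read 5974, 6468 and 5619 in YY1aKO, against 5692, 4419 and 5478 in control. Slc25a5, the widely expressed ANT2, read 5250.3, 5858 and 6312 in YY1aKO, against 7326, 6288 and 6241 in control. In all 3 genes the groups overlapped. The log2 fold changes were 0.14 ± 0.10 for Slc25a3 (95% interval from -0.10 to 0.37), 0.22 ± 0.13 for Slc25a4 (from -0.10 to 0.53) and -0.19 ± 0.12 for Slc25a5 (from -0.47 to 0.09). All 8 probe sets of Slc25a5 had a negative log2 fold change and none passed. The 4 probe sets of Slc25a4 differed in sign, and none passed in either fit. One nearly as bright as the chosen one had -0.09 ± 0.13, and -0.18 ± 0.11 without control 2, while the others were positive.

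The ATP-Mg/phosphate carriers, which adjust the matrix pool of adenine nucleotides in response to calcium, passed in neither fit. Slc25a25, which is known to respond to cold and exertion in mice, read 169, 201 and 173 in YY1aKO, against 181, 145 and 171 in control (0.13 ± 0.13). Slc25a23 had 0.20 ± 0.24, and -0.06 ± 0.11 without control 2. Slc25a24 had 0.31 ± 0.27, and 0.04 ± 0.18 without control 2, and read 53.1 to 109 over the 6 arrays.

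Slc25a10, the dicarboxylate carrier, exchanges malate or succinate for phosphate and is abundant in white fat, where it is tied to lipid synthesis. It read 1726, 2968 and 2183 in YY1aKO, against 1349, 911 and 1151 in control. Every YY1aKO value lay above every control value, and YY1aKO 2 was the highest. With 6 arrays it missed the threshold (0.99 ± 0.24, adjusted p = 0.056), and without control 2 it rose by 0.84 ± 0.23, or 1.80-fold (adjusted p = 0.045, limma). A second, dimmer probe set of Slc25a10 passed in neither fit (1.24 ± 0.36, and 1.00 ± 0.33 without control 2). The 2-oxoglutarate/malate carrier Slc25a11 read 745, 835 and 799.6 in YY1aKO, against 672, 1106 and 621 in control, and passed in neither fit (0.04 ± 0.23, and 0.29 ± 0.09 with an adjusted p of 0.064 without control 2). Slc25a35, an orphan of the same branch, had 0.26 ± 0.18 and did not pass.

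Of the uncoupling proteins and their relatives, none passed with 6 arrays. Ucp3, best known from muscle and brown fat, where it is tied to fatty acid use, read 207, 216 and 216 in YY1aKO, against 403, 129 and 301 in control. The YY1aKO values were nearly alike and lay between control 2 and the other controls. The log2 fold change was therefore -0.23 ± 0.41 with 6 arrays (adjusted p = 0.76) and -0.71 ± 0.14 without control 2, where Ucp3 fell (adjusted p = 0.017, limma). A second Ucp3 probe set read 91.6 to 98.5 in YY1aKO and 73.9 to 102 in control, and passed in neither fit (0.07, and -0.07 without control 2). Ucp1, which the symbol rule leaves out, read 118, 67.6 and 306 in YY1aKO, against 24.7, 23.8 and 25.5 in control. It rose by 2.45 ± 0.53 (adjusted p = 0.041, limma), and as its control readings are low the rise may be understated. Slc25a30, or KMCP1, read 479, 346 and 558 in YY1aKO, against 650.1, 850.4 and 587 in control. It did not overlap and passed in neither fit (-0.60 ± 0.23, adjusted p = 0.15). Slc25a14, or UCP5, had 0.05 ± 0.12.

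**Figure D2:**
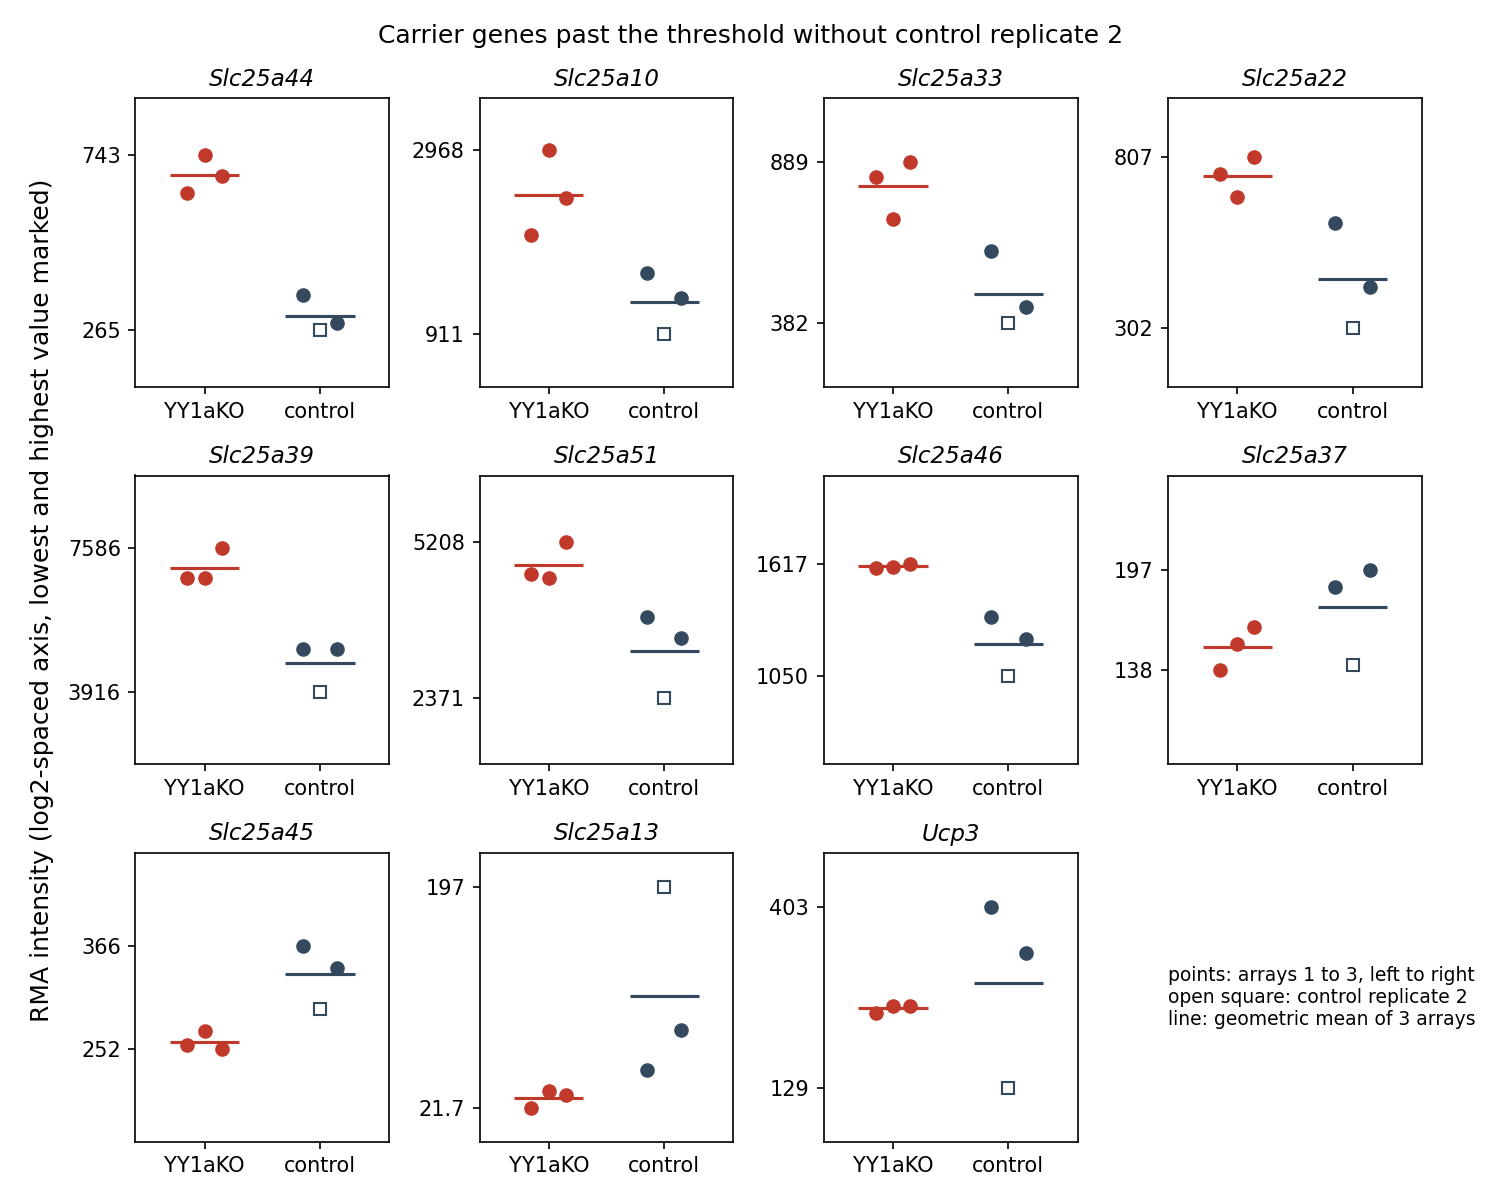
Deposited RMA intensity (y axis, log2-spaced, lowest and highest value marked) on each array for the 11 carriers with an adjusted p under 0.05 without control replicate 2. Points are arrays 1 to 3, YY1aKO left and control right, the open square is control 2, and lines are geometric means of 3 arrays. The groups do not overlap for Slc25a44, Slc25a39 and Slc25a33, while control 2 lies below every YY1aKO value of Ucp3 and above all other arrays for Slc25a13.

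Members at the outer membrane include Slc25a46, which takes part in mitochondrial shape and lipid exchange, and Mtch2, which inserts proteins into that membrane. Slc25a46 read 1588, 1598 and 1617 in YY1aKO, against 1320.2, 1050.5 and 1213 in control. The YY1aKO arrays were nearly alike and all above control. It missed the threshold with 6 arrays (0.43 ± 0.11, adjusted p = 0.060) and rose without control 2 (0.34 ± 0.08, adjusted p = 0.030, limma). Its second probe set passed in both fits (0.79 ± 0.13 with 6 arrays, adjusted p = 0.021 over all probe sets). Mtch2 read 1965, 2233 and 2445 in YY1aKO, against 2527, 1333 and 2111 in control (0.20 ± 0.25), and Mtch1, a relative of it, had 0.05 ± 0.17. Both passed in neither fit. Another bright Mtch2 probe set read 1246, 1686 and 1686 in YY1aKO, against 1106, 831 and 986 in control, with no overlap. It gave 0.66 ± 0.17 with 6 arrays and 0.55 ± 0.16 without control 2 (adjusted p = 0.063 and 0.051 over all probe sets, limma). None of the 6 probe sets of Mtch2 passed in either fit.

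For 4 of the Slc25a genes no substrate is given here. Slc25a45 read 256, 269 and 252 in YY1aKO, against 366, 291 and 338 in control. The groups did not overlap, and it fell without control 2 (-0.44 ± 0.08, adjusted p = 0.016, limma). With 6 arrays it did not pass (-0.35 ± 0.11, adjusted p = 0.10). Slc25a47, best known from liver, read 99.4, 78.0 and 98.7 in YY1aKO, against 106, 610.1 and 97.5 in control. Only control 2 stood out, and the difference was -1.02 ± 0.72 with 6 arrays and -0.15 ± 0.13 without it, with no call in either fit. Slc25a48 (27.8 to 51.3 over the 6 arrays) and Slc25a53 (30.3 to 48.5) were dim, had 0.49 ± 0.17 and 0.22 ± 0.16, and passed in neither fit.

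Of the 36 carriers, 31 lay among the brightest 60% of genes, and Slc25a2, Slc25a13, Slc25a24, Slc25a48 and Slc25a53 did not. Brightness was the mean log2 value over all 6 arrays, also for the fits without control 2. Slc25a47 passed this filter (level 114) only through control 2, where it read 610, against 78.0 to 106 on the other arrays. Probe sets of one gene could be compared for 17 carriers, since the other 19 have 1 probe set each. Tested one by one, 9 of the 74 probe sets rose and none fell with 6 arrays, where 10.8% of all probe sets were called. Without control 2, 13 rose and 4 fell, where 25.3% of all were called. With 6 arrays, 5 of the 17 genes had at least 1 called probe set (Slc25a17, Slc25a39, Slc25a44, Slc25a46 and Slc25a51), and Slc25a39 alone had all of its probe sets called. Without control 2, 7 had at least 1 and 2 had all called. These counts were not made over all genes with several probe sets. The shares of single probe sets are no background for them, so they are no result about the carriers.

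**Figure D3:**
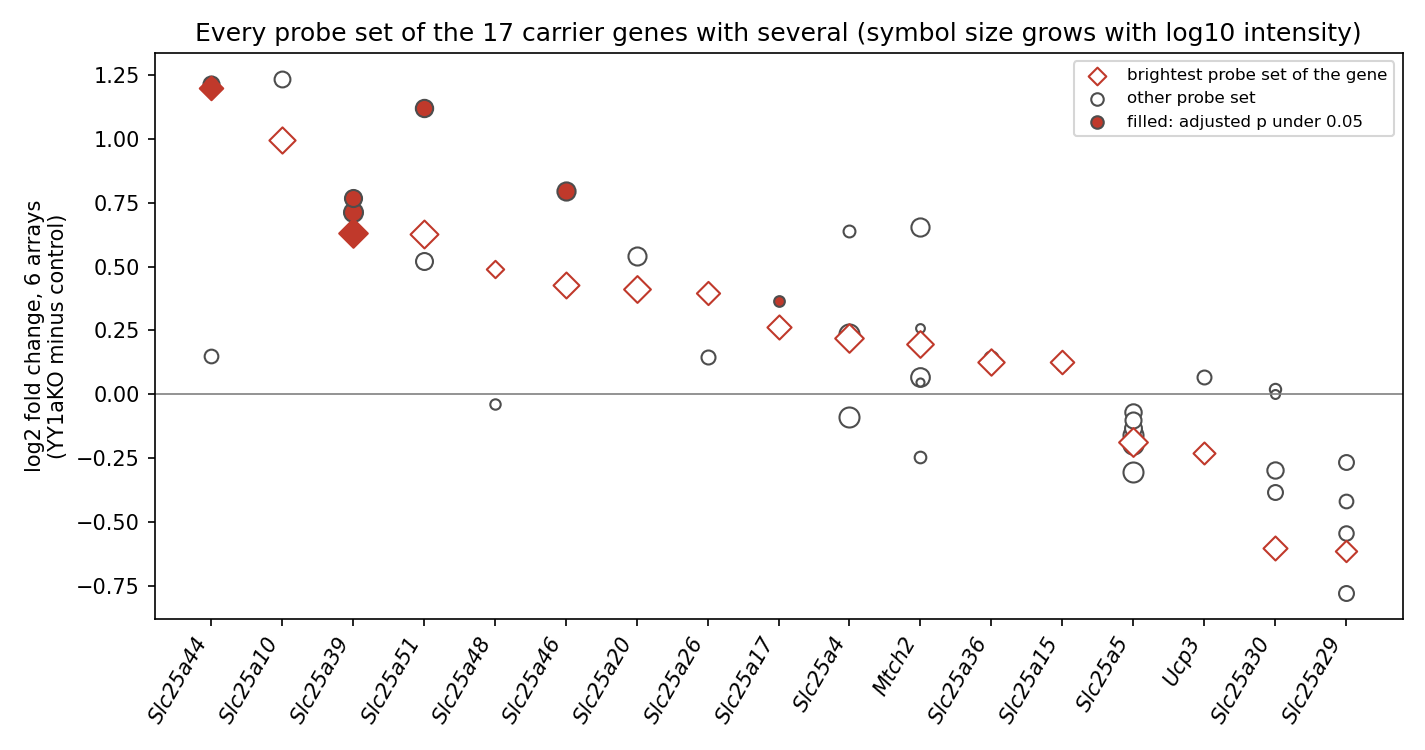
Log2 fold change with 6 arrays (y axis, YY1aKO minus control) of every probe set of the 17 carriers with several, ordered along the x axis by the value of the brightest one. Diamonds are the brightest probe set of a gene, circles the others, filled symbols have an adjusted p under 0.05 over all probe sets, and size grows with log10 intensity. The 3 probe sets of Slc25a39 lie together, whereas the dimmest of Slc25a44 lies at 0.15.

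Genes that work with the carriers were taken from lists drawn up with earlier results of these data known. Carriers reach the inner membrane through the TOM70 receptor and the small TIM chaperones. Of 14 measured genes of this import route, 3 rose and none fell with 6 arrays, and 7 rose and 1, Agk, fell without control 2 (median 0.23, and 0.27 without control 2). These are 21.4% and 57.1% of the list called, against 10.8% and 26.1% of all genes, a difference that was not tested. All 14 lie among the brightest 60% of genes, of which 20.7% and 45.1% were called when tested alone. The list was not counted in those fits. Timm9, a small TIM chaperone, read 178, 194 and 197 in YY1aKO, against 118, 109 and 105 in control. Its groups lay apart and it rose by 0.78 ± 0.09 (adjusted p = 0.011, limma). Timm10b rose by 0.62 ± 0.11 and Tomm70a, the receptor for carrier precursors, by 0.49 ± 0.10.

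Among 17 measured genes of other routes through mitochondrial membranes, 2 rose and none fell with 6 arrays, and 2 rose and 2 fell without control 2. The shares called, 11.8% and 23.5%, lie near the 10.8% and 26.1% of all genes. All 17 lie among the brightest 60% of genes, of which 20.7% and 45.1% were called when tested alone. In those fits this list was not counted. Vdac3, a pore of the outer membrane, rose by 0.56 ± 0.11 and the sideroflexin Sfxn4 by 1.08 ± 0.24. Without control 2 the serine carrier Sfxn1 (-0.89 ± 0.21) and the sodium/calcium exchanger Slc8b1 (-0.52 ± 0.09) fell. Mpc1, of the pyruvate carrier, had 0.76 ± 0.23 and passed in neither fit (adjusted p = 0.093, and 0.051 without control 2, limma).

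Of 20 enzymes that use or make the carried substrates, Pck2 alone passed with 6 arrays, rising by 1.10 ± 0.24, and without control 2, 4 rose and 4 fell. These are 5% and 40% of the list, against 10.8% and 26.1% of all genes. Of the 20 enzymes, 18 lie among the brightest 60% of genes, of which 20.7% and 45.1% were called when tested alone. In those fits the enzymes were not counted. Without control 2, Acly, which splits exported citrate for lipid synthesis, rose by 2.25 ± 0.32. Alas1, the first enzyme of haem synthesis, then had -1.33 ± 0.14 and Idh2 -0.89 ± 0.09. Bcat2, the mitochondrial transaminase that starts the breakdown of branched-chain amino acids, read 43.7, 42.2 and 69.6 in YY1aKO, against 156, 68.5 and 93.0 in control. It fell without control 2 (-1.25 ± 0.30, adjusted p = 0.032, limma) and did not pass with 6 arrays (-0.98 ± 0.35, adjusted p = 0.14). Slc25a44, whose substrates Bcat2 uses, had the opposite sign in these fits. Bcat2 did not lie among the brightest 60% of genes and its groups overlapped, so its value is uncertain.

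For the 93 genes of the respiratory chain and ATP synthase measured, assembly factors included, 9 rose and 5 fell with 6 arrays, and 20 rose and 17 fell without control 2. These are 15.1% and 39.8% of the list, against 10.8% and 26.1% of all genes. Of the 93 genes, 91 lie among the brightest 60% of genes, of which 20.7% and 45.1% were called when tested alone. In those fits the respiratory list was not counted. The median log2 fold change of the 93 genes was 0.15, and 0.08 without control 2, beside 0.17 and 0.10 for the carriers. No difference between these lists was tested.

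Markers of other cells moved with genotype in part. The 8 brown and beige adipocyte markers summed to 1665 to 3245 in YY1aKO and 628 to 1570 in control. In both fits 3 were higher, Ucp1, Cidea and Cox7a1, and 1 lower, Ppargc1a. That is 50% of the list, against 10.8% of all genes with 6 arrays and 26.1% without control 2, a difference that was not tested. The 10 skeletal muscle markers summed to 1446 to 2284 in YY1aKO and 432 to 510.1 in control, of which Acta1 made up 1107 to 1945 in YY1aKO and 109.9 to 178 in control, and it alone of them passed with 6 arrays. Without control 2, Mylpf, a muscle myosin light chain, also rose (0.43 ± 0.09). Of the muscle list 10% was called with 6 arrays and 20% without control 2, beside 10.8% and 26.1% of all genes. The 10 macrophage markers summed to 13855 to 16641 in YY1aKO and 9242 to 16796 in control, and the 4 mesothelium markers to 2166 to 3768 in YY1aKO and 2702 to 4509 in control, with none passing with 6 arrays in either list. Without control 2 no macrophage marker passed, whereas the mesothelium sums of controls 1 and 3, 4393 and 4509, lay above every YY1aKO sum, all 4 markers had a negative log2 fold change and Wt1 fell (-0.58 ± 0.13). The adipocyte sums of controls 1 and 3, 127643 and 121233, likewise lay above every YY1aKO sum, and Retn alone of the 8 adipocyte markers fell then (-1.67 ± 0.44). Retn made up 19778 and 18733 of these control sums, against 3171, 8225 and 8440 of the YY1aKO sums. Sums without Retn were not compared, and 3 of the 8 markers had a positive log2 fold change without control 2. In that fit 12.5% of the adipocyte and 25% of the mesothelium list were called, against 26.1% of all genes. Of the 10 muscle markers 1, and of the 8 brown and beige markers 4, lay among the brightest 60% of genes, and no detection calls were used. The part of any of these cell type markers in the carrier results was not tested.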

How the data were processed

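White adipose tissue RNA of 3 YY1aKO and 3 control samples was measured on Affymetrix arrays. The authors deposited an intensity for each probe set on each array, summarised with RMA (version not given in the sources used here), per the submitters' processing notes. RMA corrects background, equalizes the arrays' distributions and summarises probes, which would remove a shift common to most genes. The intensities are linear (6.09 to 30322), and how they were returned to that scale is not stated.

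Of 22690 probe sets, 64 controls were left out and 20380 have a single platform symbol, of which 20351 matched the reference gene table by Entrez ID. Each of 12393 genes was represented by its brightest probe set, with no brightness filter. The log2 values were fitted with limma 3.58.1 in R 4.3.3 (two-sided, Benjamini-Hochberg over all genes, threshold 0.05), with 6 arrays and without control 2. Fold changes are YY1aKO minus control. The annotation names no build for the probe sets. The scripts were tested on simulated data. The members and lists were chosen with earlier results of these data known. Values on every array are given for members past the threshold, for those with the smallest p without control 2 and for key members set by name, and up to 4 called genes per companion list. The NRF-1, cyclic AMP and ATF4 motifs were chosen after the reference tables were seen. Alternatives were other probe set choices, filters, normalization, variance priors, array weights, thresholds, a replicate block and each array left out.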

Additional observations from a re-analysis of the deposited data

How the results depend on the processing

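With 6 arrays, 3 carriers rose and 0 fell. The count of rises was 5 among the brightest 60% of genes (20.7% of the genes tested then called) or with the same median on every array (12.6%). It was 6 among the brightest 40% (23.1%) and 10 with array weights (39.5%), whose estimation stopped short of convergence and which also gave 4 falls. It was 0 with the replicate block, where 0.0968% of all genes were called (7 carriers at an unadjusted p under 0.05). It was 0 at an adjusted p under 0.01 and 7 under 0.10, where 0.573% and 18.6% of all genes passed. The carriers' counts thus moved with those of all genes. With each array left out in turn it ran from 0 to 7, and falls from 0 to 4. Deviations of same-numbered samples from their group means correlated at -0.12, -0.08 and -0.10. As control 2 stands apart and shifts the deviations of the other controls, these values cannot show whether replicate numbers pair the samples. Without control 2, 7 rose and 4 fell. With 1 further array left out, rises ran from 2 to 6 and falls from 0 to 3 (1 without YY1aKO 2). Among the brightest 40% of genes no fall passed (0), as all 4 genes that fell are absent there (51.2% of the genes tested then called). The family median stayed between 0.10 and 0.26 with 6 arrays, and between 0.08 and 0.22 without control 2. Of 645 single-gene values recomputed, 0 turned direction while past the threshold in either setting, 55 lost and 29 gained a call, and 17 changed sign with no call in either. Apart from these constructions, the cause was not tested. With 3 arrays a group and no detection calls, dim members (Slc25a2, Slc25a13, Slc25a24, Slc25a48 and Slc25a53) are the least certain.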
